A study of Mus musculus with 2 samples.

Results

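The 6 genes described here, Ren1, Agt, Ace, Agtr1a, Atp6ap2 and Mas1, encode components of the renin-angiotensin system. They were chosen by name, among 21755 protein-coding genes on chromosomes 1 to 19 and X (GENCODE M21). For each gene the window was its annotated span plus 50 kb on each side, and every peak of the optimal reproducibility-thresholded list with its summit in that window was taken. The 6 windows held 43 of the 65482 optimal peaks, and no peak fell in more than 1 window.

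Binding of CTCF, a zinc-finger protein found at insulators and at the anchors of chromatin loops, was mapped by ChIP-seq in whole kidney of newborn B6NCrl mice (0 days after birth). The 2 libraries belong to 1 group with no treatment or genotype named, so conditions could not be compared. They are labelled biological replicates 1 and 2 but share biosample and donor identifiers, so the spread between them may be technical. The tissue is a mixture of cell types, and a CTCF peak list holds no marker with which to check it.

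Renin cleaves angiotensinogen to angiotensin I, and angiotensin-converting enzyme turns this into angiotensin II, the peptide that constricts vessels and retains salt. The angiotensin II receptor carries most of these effects, while the Mas receptor responds to a shorter angiotensin peptide with opposing actions. In the kidney before and around birth, renin is made along the arterial tree, and later mainly in juxtaglomerular cells beside the glomerulus.

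The signal value of each peak is the authors' own and depends on depth, which is unknown because the lists hold no read counts. It was therefore used only as a percentile (the share of optimal peaks with a signal at or below that of the peak) or as a rank within a library's list of 300000 peaks, where 1 is the highest. A motif match is a 19 bp stretch within 100 bp of the summit that passed a score reached by 1 in 10000 control positions. The matrix behind it was learned from peaks on chromosomes that hold none of the 6 genes. Start sites (TSSs) are all those annotated for a gene, and all positions are mm10. Peaks of 1 locus are not replicates, so genes were set side by side with no test.

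The windows differed widely in how many CTCF peaks they held. The Ren1 window held 14, Ace 9, Mas1 7, Agt and Atp6ap2 6 each, and Agtr1a 1. Per 100 kb of window this was 12.7 peaks for Ren1, 7.38 for Ace, 5.51 for Mas1, 5.30 for Agt, 4.64 for Atp6ap2 and 0.683 for Agtr1a, against a median of 4.45 over all protein-coding genes. By this density Ren1 stood at percentile 95.8 of all genes and Agtr1a at percentile 12.0, with the other 4 between 51.9 and 75.1. All 6 windows held a peak, as did 89.0% of those of all protein-coding genes. A window with at most 1 peak, as for Agtr1a, was found for 16.6% of protein-coding genes. Counted in the upper part of a single library's list (as many peaks as the optimal list holds), the Ren1 window had 13 peaks in replicate 1 and 14 in replicate 2, and the Agtr1a window 1 in each. The order of Ace and Mas1 was not stable: Ace had 9 and 8, and Mas1 10 and 8.

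**Figure D1:**
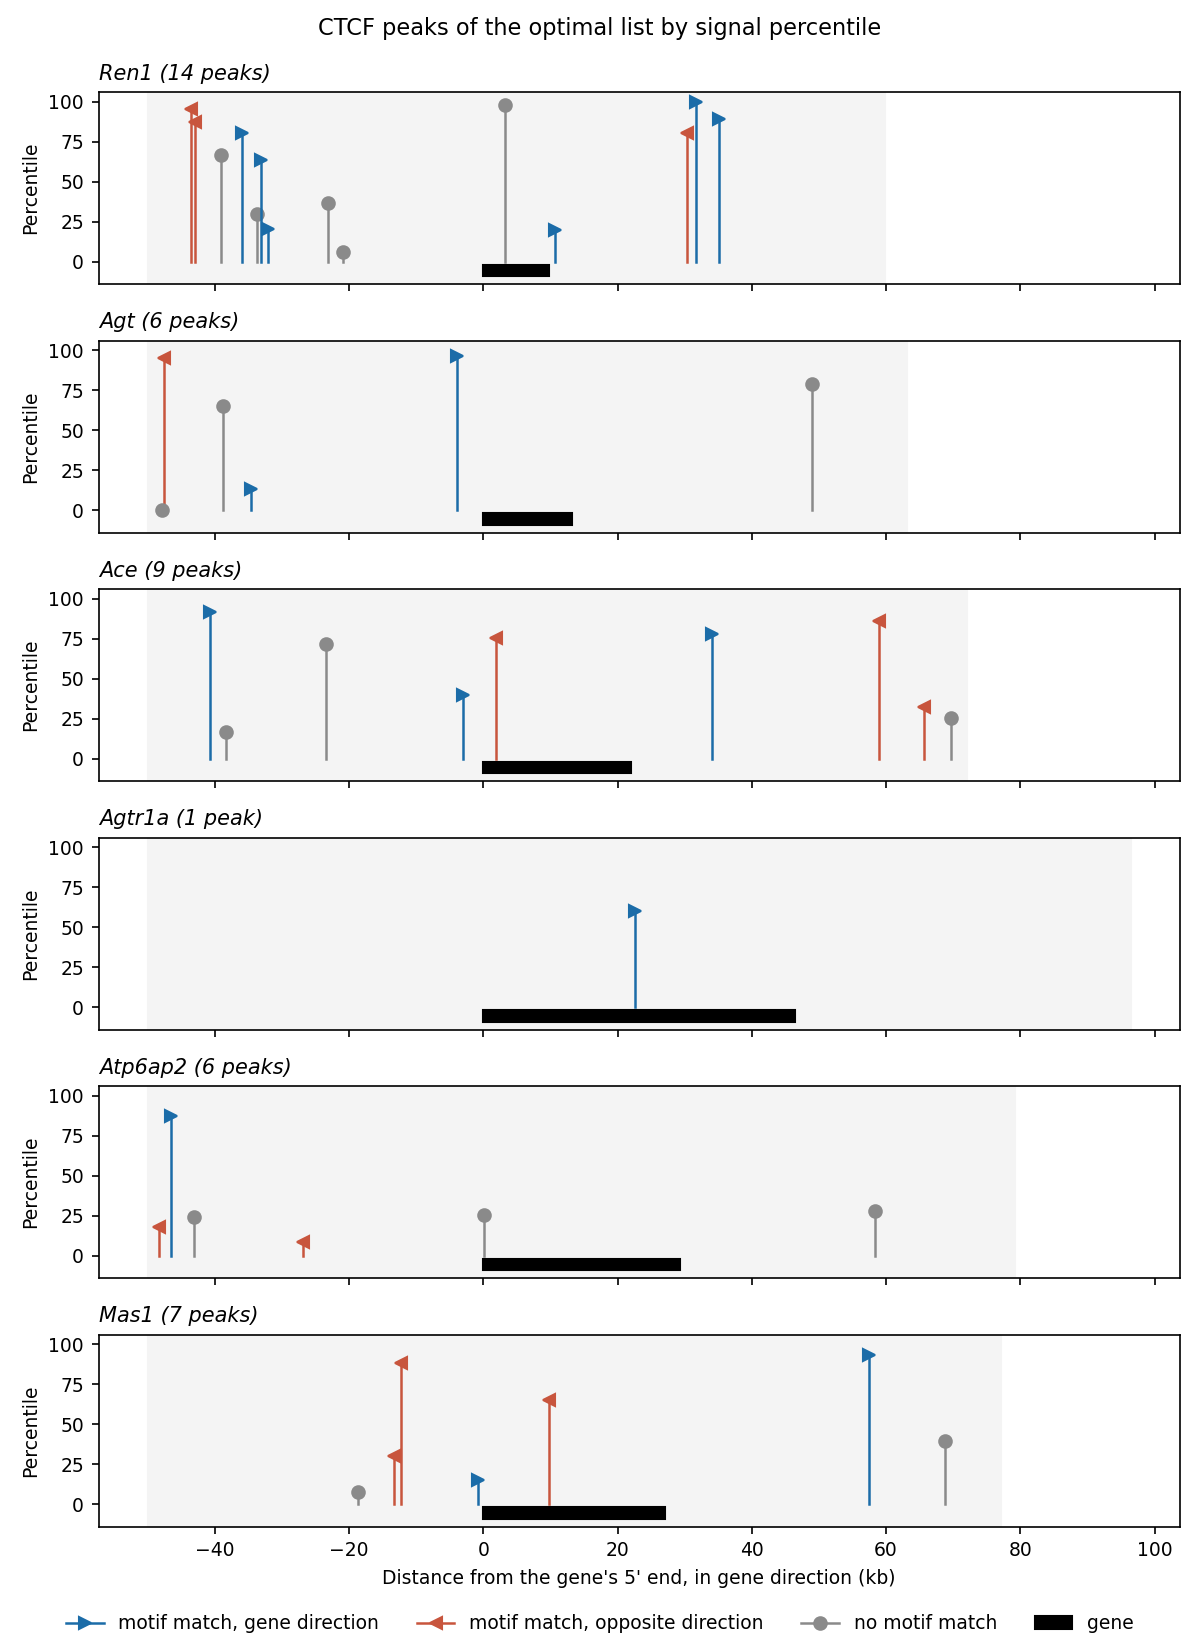
CTCF peaks in the 6 windows, with distance from the 5′ end of each gene in its own direction of transcription (kb) on the horizontal axis and the signal percentile in the optimal list on the vertical axis. Black bars are the genes, grey shading is the window, and arrowheads give the direction of a motif match relative to the gene; Ren1 has 14 peaks with a high one inside the gene, Agtr1a has 1, and the peak at the Atp6ap2 start is low within the optimal list.

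Of the 43 summits, 26 lay upstream of the gene, 12 downstream and 5 between its ends. The flanks thus held 38 summits, and they also made up 80.2% of the summed length of the windows; 9 of the upstream summits were those of Ren1. Each of Ren1, Ace, Agtr1a, Atp6ap2 and Mas1 had 1 peak in its body and Agt had none; a body peak was present in 55.5% of all protein-coding genes. Within 1 kb of an own TSS there was a peak at Atp6ap2 and at Mas1, 2 of the 6 genes, against 39.4% of all genes. Within 1 kb of an annotated TSS of a neighbouring gene lay 5 more, of which 2 (at Cog2 and Dcaf7) were also within 1 kb of that gene's own 5′ end, and the other 3 at internal starts. In all, 7 of 43 peaks were promoter peaks of some protein-coding gene by this definition. Over all optimal peaks that share was 16.6% (shares over all optimal peaks are of the 65470 on chromosomes 1 to 19 and X).

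Angiotensinogen, the substrate of the cascade, is encoded by Agt (chromosome 8, 124556534 to 124569706, reverse strand). Its nearest and highest peak, chr8:124573532-124573803, lay in intergenic sequence between the Agt and Capn9 start sites. The summit was 3964 bp upstream of the Agt TSS and 2441 bp upstream of a TSS of Capn9, a calpain protease gene. Its percentile was 96.6, with rank 3796 in replicate 1 and rank 1680 in replicate 2. Both libraries thus placed it among the high peaks of their lists. Its motif match had the highest score of all 43 peaks (23.7) and differed from the matrix at 1 of 13 strongly preferred positions. It is shown because it is the closest match to the matrix at these genes. Here and in each 19 bp sequence that follows, capitals are bases that equal the preferred base at those 13 positions. Bases at the other positions are in lower case whether or not they equal the preferred base.
Agt upstream peak, reverse strand, chr8:124573663-124573681: tgaCCACcAGGGGGCaCtg

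The other 5 peaks of the Agt window lay at neighbouring genes. On the far side of Agt, 35842 bp beyond its end, a peak at percentile 78.8 (ranks 11382 and 16270 in replicates 1 and 2) lay 75 bp from a TSS of Cog2, a Golgi complex subunit gene, with no motif match. No optimal summit lay in the 53.0 kb between that peak and the upstream one, a stretch that contains all of Agt. Within Capn9, a coding exon held a peak at percentile 13.4, 34569 bp upstream of Agt. That peak ranked 51602 in replicate 1, was not listed in replicate 2 and was absent from the conservative list. Introns of Capn9 held peaks at percentiles 65.2 (38732 bp upstream), 95.2 (47630 bp) and 0.373 (47830 bp). The last 2 overlap, with summits 200 bp apart. The stronger one ranked 4856 and 3089 in replicates 1 and 2, and the weaker one ranked 25830 in replicate 2, at exactly the same summit, but in replicate 1 the nearest overlapping peak was that of its neighbour, with its summit 198 bp away.

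Renin, the protease that starts the cascade, is encoded in this strain background by Ren1 (chromosome 1, 133350510 to 133360325, forward strand). Its body peak, chr1:133353580-133353863, lay in intron 1 of 8, 3212 bp from the 5′ end of the gene and 1813 bp downstream of an internal annotated TSS. It had percentile 97.9, with rank 692 in replicate 1 and rank 2948 in replicate 2. This was the only body peak of the 6 genes above percentile 90; a body peak above that percentile was present in 11.3% of all protein-coding genes. Its best stretch scored 11.4, 3 bp from the summit, and did not reach the score for a match (13.1). That stretch passed the score that 1 in 1000 control positions reach, but so did those of most listed peaks (38 of 43). The best stretch is picked from all positions within 100 bp of a summit, so a peak passes that score more easily than a single position does. The share of all optimal peaks that pass it was not counted. Among all optimal peaks above percentile 90, 90.7% had a match; of the 7 listed peaks above it, 6 did and this one did not.

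The whole interval is printed because this strong peak lies inside the renin gene and has no full motif match. Capitals mark the best-scoring stretch, which was no match and was scored on the opposite strand. The interval held no soft-masked (repeat) base.
Ren1 intron 1 peak, forward strand, chr1:133353580-133353863: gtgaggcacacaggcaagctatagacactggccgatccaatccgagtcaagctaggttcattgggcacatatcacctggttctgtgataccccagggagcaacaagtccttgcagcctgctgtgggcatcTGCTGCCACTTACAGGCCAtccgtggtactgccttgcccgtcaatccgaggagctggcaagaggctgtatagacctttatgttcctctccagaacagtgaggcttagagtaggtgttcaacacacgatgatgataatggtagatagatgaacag
On its motif strand the same stretch equalled the preferred base at 7 of 13 positions, against 11 of 13 for the highest peak of the window, which is shown beside it for comparison.
Ren1 intron 1 peak, best stretch, reverse strand, chr1:133353710-133353728: tggCCtgtAaGtGGCagca
Ren1 highest peak, forward strand, chr1:133382217-133382235: ctgCCACcAGGGGGCagca

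That highest peak, chr1:133382055-133382373, lay in intergenic sequence 31717 bp from the Ren1 5′ end on the downstream side, 76 bp beyond the 3′ end of Sox13, a transcription factor gene that points towards Ren1. It ranked 173 of all optimal peaks (percentile 99.7), 190 in replicate 1 and 245 in replicate 2. Among the highest peaks of the windows of all protein-coding genes with any peak, it stood at percentile 97.4. The remaining 12 peaks ran from percentile 5.72 to 95.6. On the upstream side, 7 peaks stood within 11.5 kb, just before and within Golt1a, a Golgi transport gene, and 3 on the downstream side stood within 4.81 kb around the 3′ end of Sox13. The intron 1 peak stood apart from both groups: the next summits were 24.1 kb and 7.45 kb away. Peaks at percentiles 36.8 and 19.9 lay, respectively, in a coding exon of Kiss1, the kisspeptin gene (91 bp from an internal TSS), and 849 bp beyond the end of Ren1. Peaks of Ren1 other than the intron and highest ones are named here after their values were seen.

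Of the 14 Ren1 peaks, 12 were in the conservative list and 12 overlapped an upper peak of both libraries. Motif matches were present at 9 peaks, 6 on the forward and 3 on the reverse strand. The matches nearest to Ren1 on its upstream and downstream sides were 42.7 kb apart and on the same strand, and both peaks were low within the optimal list, at percentiles 20.1 and 19.9.

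Atp6ap2 encodes the prorenin receptor, which is also an accessory subunit of the vacuolar proton pump (X, 12587801 to 12617049, forward strand). Its promoter peak, chrX:12587744-12588073, had its summit 108 bp downstream of the TSS in exon 1 of 9, in coding sequence. The percentile was 25.7, and the ranks were 47947 and 51537 in replicates 1 and 2. The peak was low within the optimal list. It stood at percentiles 84.0 and 82.8 of the 300000 peaks of each library, but those lists are much longer than the optimal list. Optimal peaks thus tend to stand high in them. It lay in the conservative list, as did 84.2% of all optimal peaks. Its best stretch scored 7.35, 58 bp from the summit, which is no match; it is shown because its core resembles the motif while its first bases do not.
Atp6ap2 promoter peak, best stretch, forward strand, chrX:12587958-12587976: gggaagCtAGGGGGCGCgg

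The highest peak of the Atp6ap2 window, chrX:12541078-12541342, lay in intergenic sequence 46589 bp upstream. Its percentile was 87.2, with rank 13689 in replicate 1 and rank 3785 in replicate 2, a wider spread between libraries than for the promoter peak. Its match is shown as the weakest among the highest peaks of the 6 windows (score 14.7), and it was no match with the matrix learned from all sequence, repeats included.
Atp6ap2 upstream peak, forward strand, chrX:12541196-12541214: tagCCACacGatGGCGCtg
The other 4 peaks were at percentile 18.2 (48327 bp upstream), 24.2 (43180 bp upstream), 8.45 (26882 bp upstream) and 27.9 (29101 bp beyond the gene end). All 6 were in the conservative list, yet 5 of the 6 lay below percentile 30 of the optimal list, and the median percentile of 24.9 was the lowest of the 6 windows. The peak at percentile 8.45 had a match with a score of 19.9, above that of the highest peak of the window.

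Angiotensin-converting enzyme is encoded by Ace (chromosome 11, 105967945 to 105989964, forward strand). Its body peak, chr11:105969661-105969901, lay in coding exon 3 of 25, 1826 bp from the 5′ end of the gene and 1552 bp before an internal annotated TSS. The percentile was 75.4, with rank 15659 in replicate 1 and rank 16721 in replicate 2. These ranks differed little between libraries. An intron of Gm11651, an antisense gene, covers the same summit. The nearest peak on the other side of the Ace start lay 3030 bp upstream at percentile 39.5 (ranks 43773 and 38460), and was picked out after its value was seen. The matches of this pair were 4.86 kb apart, on either side of the 5′ end of Ace, and pointed towards each other.

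The highest peak of the Ace window, chr11:105927091-105927363, lay 40719 bp upstream in a UTR of Tanc2, a scaffold protein gene. Its percentile was 91.6 and its ranks were 4089 and 6625. The match of the exon 3 peak is shown as the site inside the gene, beside that of the highest peak.
Ace exon 3 peak, reverse strand, chr11:105969766-105969784: ggaCCAgcAGGtGGCagtc
Ace highest peak, forward strand, chr11:105927206-105927224: ctaCCACtAGGtGtCaCtg
Apart from the exon 3 and highest peaks, the window held 7 more at percentiles of 16.7 to 85.9, among them 1 at an internal TSS of Cyb561, a cytochrome gene (6 bp away), and 1 in Dcaf7, a WD-repeat gene, 690 bp from its nearest TSS. Of the 9 peaks, 6 were in the conservative list, and 2 were not listed in replicate 2 at all. The share kept in the conservative list was 84.2% over all optimal peaks and 35 of 43 over the 6 windows.

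Agtr1a encodes the main angiotensin II receptor of rodents (chromosome 13, 30336441 to 30382867, forward strand). The only peak of its window, chr13:30358932-30359023, lay in intron 2 of 2, 13433 bp from the nearest annotated TSS. The percentile was 59.8, with rank 27583 in replicate 1 and rank 25691 in replicate 2. Its place was thus near the middle of the optimal list. In the much longer library lists, where optimal peaks tend to stand high, it was at percentiles 90.8 and 91.4. It was in the conservative list. Its match is shown because it is the only one at this receptor gene.
Agtr1a intron 2 peak, forward strand, chr13:30358960-30358978: gtgCCACcAGaGGGCagac
The next optimal summit was 86.5 kb away on the upstream side, at percentile 98.1, and 143.1 kb away on the downstream side, at percentile 75.9. In the relaxed list of both libraries pooled, which had no reproducibility threshold, the Agtr1a window held 14 peaks. The Atp6ap2 window also held 14 and the other windows 18 to 43. The highest of the 13 in the Agtr1a window that were not optimal ranked 87433 of 300000, and 1 lay within 1 kb of an Agtr1a TSS, at rank 110130. Such peaks also lay within 1 kb of a TSS of Ren1, Ace, Atp6ap2 and Mas1. These relaxed counts were not scaled to window length, and the same counts over all protein-coding genes were not made.

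Mas1 encodes the Mas receptor (chromosome 17, 12841079 to 12868143, reverse strand). It had a promoter peak, chr17:12868734-12869063, with its summit 756 bp upstream of the 5′ end of the gene, at percentile 15.1. The ranks were 58370 and 59189 in replicates 1 and 2. Its body peak, chr17:12858227-12858402, lay in intron 3 of 8 at percentile 65.3, with ranks 22689 and 23436. Both peaks thus held nearly the same place in both libraries, and the body peak was the stronger. Their matches are shown as those nearest to the gene. That of the promoter peak lay 41 bp from the summit, the greatest distance among the 27 peaks with a match. In it, 4 of the 19 bases were soft-masked (repeat). That of the intron 3 peak (score 13.3) was close to the threshold and was no match with the matrix learned from all sequence.
Mas1 promoter peak, reverse strand, chr17:12868931-12868949: ctaCCACttGatGGCaCca
Mas1 intron 3 peak, forward strand, chr17:12858317-12858335: tttCCACtAGGGGGtatct

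The highest peak of the Mas1 window, chr17:12810518-12810792, lay 30411 bp beyond the gene end at percentile 93.3, with ranks 4099 and 4932.
Mas1 highest peak, reverse strand, chr17:12810659-12810677: ataCCACaAGGGGGCaCta
Upstream of Mas1, peaks stood at 12249 bp (percentile 88.3, ranks 6103 and 9337), 13257 bp (percentile 30.2) and 18663 bp (percentile 7.37), and 1 more lay 41637 bp beyond the gene end (percentile 39.3). The last of these had the largest difference in rank between libraries of the 40 peaks listed in both, at rank 33490 in replicate 1 and rank 155291 in replicate 2, and was not in the conservative list. Airn, the non-coding antisense transcript of the imprinted Igf2r locus, covers the body of Mas1 at the intron 3 peak and both peaks beyond the gene end, so that these 3 peaks belong to the Igf2r-Airn locus as well.

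**Figure D2:**
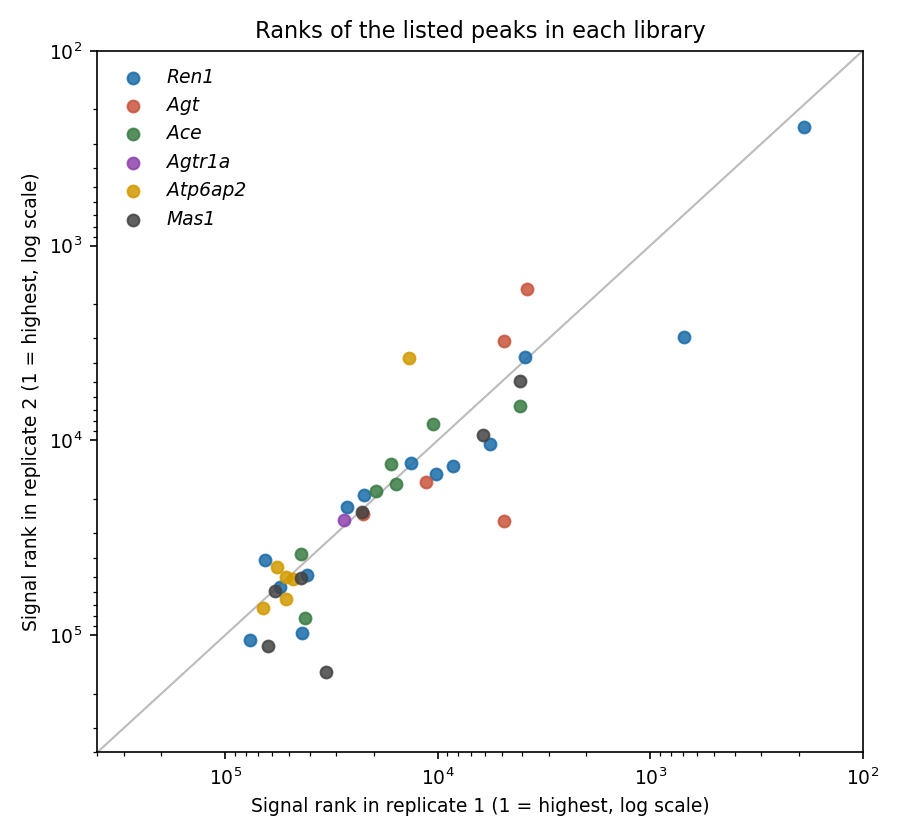
Signal rank of each listed peak in replicate 1 (horizontal) and replicate 2 (vertical), both on log scales with 1 as the highest; the line marks equal ranks and each point is 1 of the 40 peaks listed in both libraries. The highest Ren1 peak, at ranks 190 and 245, is at the upper right, and 34 of the 40 lie within a factor of 2 of the line.

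Ranks in the libraries were close for most of these peaks, but the optimal list is thresholded for reproducibility, which favours such peaks. All 43 were listed in replicate 1 and 40 in replicate 2, and of the 40 listed in both, 34 had ranks within a factor of 2. The share of all optimal peaks within that factor was not counted, so it is not known whether such closeness is particular to these windows. For 3 peaks the matched summit in a library lay more than 100 bp away, so those ranks may belong to a neighbouring peak. An upper peak of both libraries overlapped 35 of the 43, against 78.6% of all optimal peaks.

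The share of peaks with a motif match was close to that over all peaks, at 27 of 43 peaks (62.8%) against 61.3% of all optimal peaks. With percentile above 50, 18 of 23 had one, and 9 of 20 did at or below it. Over all optimal peaks the shares were 76.5% and 46.1%. The median distance from the centre of a match to the summit was 7 bp.

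**Figure D3:**
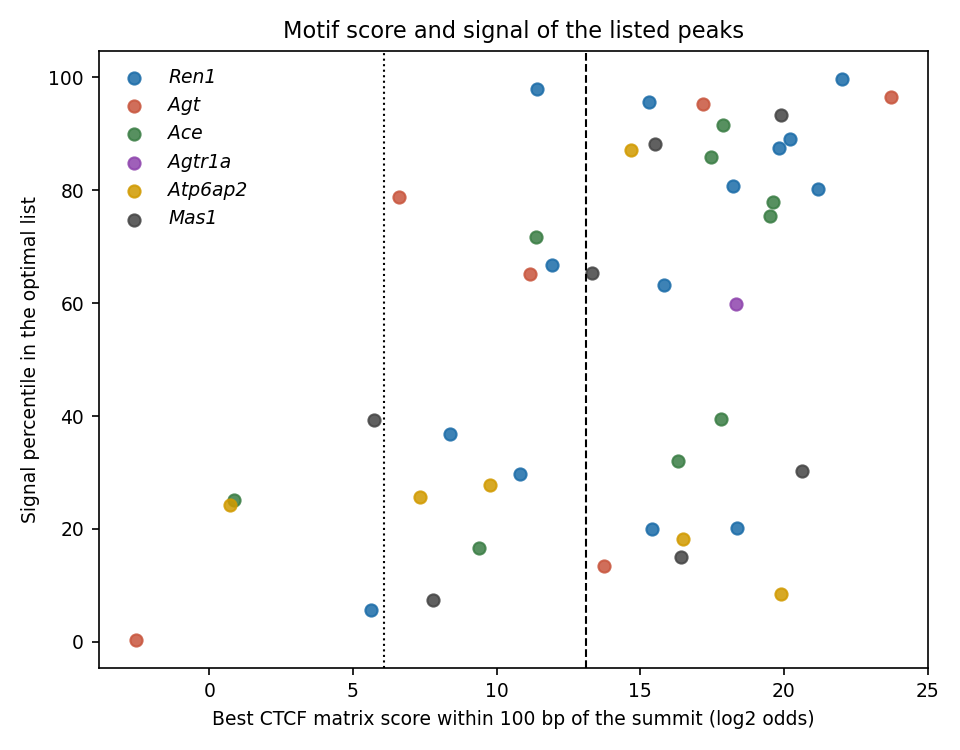
Best CTCF matrix score within 100 bp of the summit (log2 odds, horizontal) and signal percentile in the optimal list (vertical) for the 43 peaks, coloured by gene. The dashed and dotted lines are the scores that 1 in 10000 and 1 in 1000 control positions pass; the Ren1 intron 1 peak is the highest point left of the dashed line, at score 11.4 and percentile 97.9.

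Signal above percentile 90 was reached by 7 of the 43 peaks, against 10% of all optimal peaks, a share that the percentile fixes. Such a peak lay in the window of Ren1 (3 peaks), Agt (2), Ace (1) and Mas1 (1), 4 of 6 genes, against 47.8% of all genes. The Agtr1a and Atp6ap2 windows had none.

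A list of 19 other genes of the pathway was counted in the same way. It holds angiotensin receptors and their partners, peptidases that make or break down angiotensins, and genes of aldosterone synthesis and response. A promoter peak was present at 8 of the 19 and a body peak at 12, against 39.4% and 55.5% of all genes. By the highest promoter peak of each gene, the top 3 were Prcp, a carboxypeptidase gene (percentile 96.7), Mme, which encodes neprilysin (85.7), and Enpep, which encodes aminopeptidase A (71.1). The promoter peaks nearest to a TSS of Mme and of Enpep were lower, at percentiles 36.7 and 64.6. By the highest promoter peak of each gene, low ones were at Rnpep (percentile 37.4), at Nr3c2, the mineralocorticoid receptor gene (28.7), and at Lnpep (25.9). The promoter peak nearest to a TSS of Rnpep was lower still, at percentile 1.31. The peak density ran from 0.655 per 100 kb at Agtr1b, the second angiotensin II receptor gene of its type in mice, to 13.5 at Agtrap, which encodes a protein that binds that receptor type. The windows of Agtr1a and Agtr1b, which lie on chromosomes 13 and 3, each held 1 peak, in both cases inside the gene, at percentiles 59.8 and 44.9. Agtr2, the other angiotensin II receptor gene, had 2 peaks in its window, the higher at percentile 31.5.

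**Figure D4:**
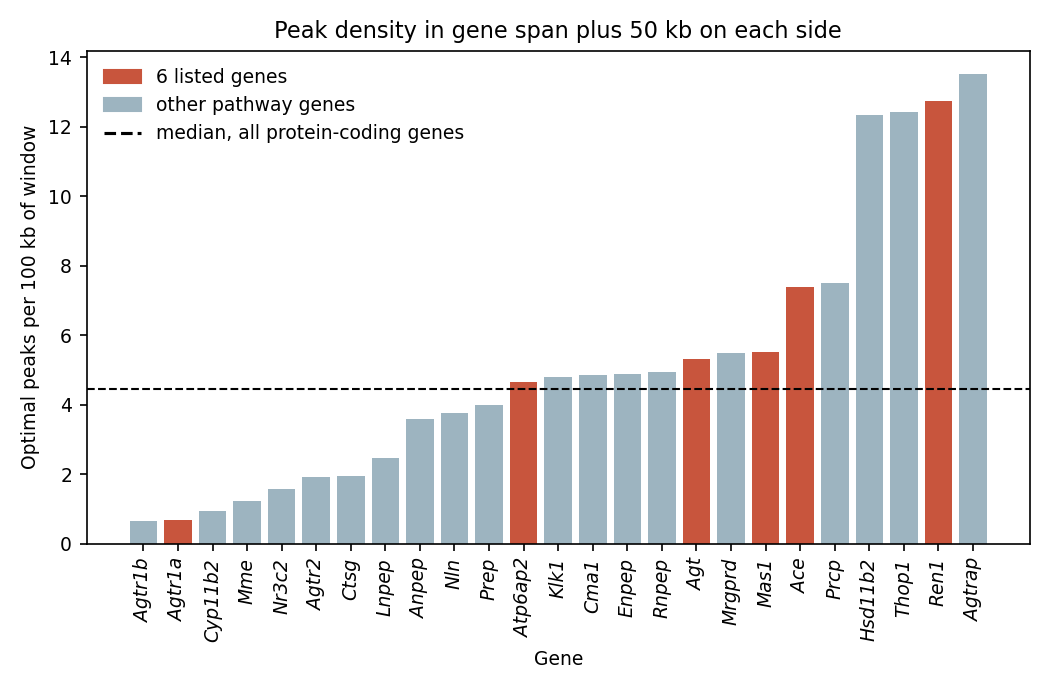
Optimal CTCF peaks per 100 kb of window (gene span plus 50 kb on each side) for the 6 listed genes (red) and 19 other pathway genes (grey-blue), ordered by density. The dashed line is the median of all protein-coding genes, 4.45; Ren1 at 12.7 is second to Agtrap at 13.5, and Agtr1a at 0.683 is next to Agtr1b at 0.655.

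No summit lay within 1 kb of a window edge on either side. The farthest peak inside an edge was that at 48327 bp from Atp6ap2 (percentile 18.2), and the closest outside one lay 56146 bp from Ace (percentile 92.3).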

How the data were processed

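The authors deposited narrowPeak lists on mm10: 1 per library, 1 from both libraries pooled, and conservative and optimal lists thresholded for reproducibility, per the notes beside the files. Aligner, caller and thresholds: not given in the sources used here. Only ranks and percentiles within a list were taken from the deposited signal value, and the deposited offset gave the summit. Depth is unknown.

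Library peaks were matched by overlap of at least 1 bp, taking the nearest summit. A 19 bp CTCF matrix was learned outside soft-masked sequence from 6000 peaks, starting from the most enriched short word over control windows 2 kb away, on RefSeq GRCm38.p6, the mm10 assembly. The sequences printed are from that C57BL/6J reference, not from these mice. Python 3.11.15, numpy 2.4.6, pandas 2.3.3 and samtools 1.23.1 were used. Counting and motif learning were tested on simulated data.

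The members and lists were chosen with earlier results of these data known. All peaks of windows with up to 8 peaks were described; elsewhere the highest, the nearest and body peaks. Alternatives were other lists, windows, TSS distances and motif settings, and each library alone. A control library was not analysed here. One gene of the planned pathway list is not reported here.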

Additional observations from a re-analysis of the deposited data

How the results depend on the processing

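No paired analysis was possible because both libraries form 1 group. With either library left out, no count of peaks in a window, body or promoter moved by more than 1.5 times: windows then held 13 to 14 peaks for Ren1, 8 to 9 for Ace, 8 to 10 for Mas1, 5 for Agt and for Atp6ap2, and 1 for Agtr1a. Counts follow the window and the list by construction. With 25 kb on each side, counts were 6 for Ren1, 4 for Ace, 1 for Agt and 1 for Atp6ap2, and with 100 kb they were 24 for Ren1, 10 for Agt and 3 for Agtr1a. In the upper 50% of the optimal list, windows held 9 peaks for Ren1, 5 for Ace, 3 for Mas1 and 1 for Atp6ap2, the body count of Atp6ap2 was 0, and the promoter counts of Atp6ap2 and Mas1 were 0. With 2.5 kb on each side of a TSS, Ren1 and Ace gained 1 promoter peak each. Motif matches numbered 38 at the score of 1 in 1000 control positions and 23 with the matrix learned from all sequence. The shares of all optimal peaks under these settings were not counted. With the matrix learned from all sequence, the 4 lost are those of the Atp6ap2 upstream peak, the Mas1 intron 3 peak, the Mas1 peak 12249 bp upstream and the Capn9 exon peak.

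The percentile of a window's count among all genes, in the conservative list, was 88.7 for Ren1, 44.5 for Agt, 52.7 for Ace and for Atp6ap2, and 14.6 for Agtr1a, and that of its density 93.9, 54.3, 60.02, 56.5 (Atp6ap2) and 12.7. With either library left out, the count percentile was 89.3 to 89.4 for Ren1, 39.9 to 40.7 for Agt and for Atp6ap2, 61.8 to 70.7 for Ace, 13.7 to 14.2 for Agtr1a and 61.8 to 76.5 for Mas1. The density percentile was 93.9 to 94.7 for Ren1, 49.2 to 50.2 for Agt, 67.6 to 75.8 for Ace, 11.8 to 12.5 for Agtr1a, 43.8 to 44.6 for Atp6ap2 and 65.7 to 79.2 for Mas1. The values of Ren1, Agt and Atp6ap2 moved by more than the spread between libraries (1 SD), and those of Ace, Agtr1a and Mas1 did so in some of these settings only; the cause was not tested. Depth is unknown, so the absence of a peak says only that none was listed.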
